A study of Mus musculus with 8 samples.

Results

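The genes described here are the protein-coding neighbors of C3 on mouse chromosome 17, chosen by position alone. They are the 71 genes, of 29968 in the table, whose start lies in a window of 5 Mb on either side of C3 (mm39), with C3 itself left out. RNA was sequenced from 8 pancreatic tumors, 4 grown in C57BL/6J hosts (WT) and 4 grown in complement C3 null hosts (C3-/-), described as C57BL/6J too. All 8 hosts were male, 12 weeks old, and carried tumors of KPC FC1245, a mouse pancreatic cancer line, from 250000 cells placed in the tail of the pancreas in 50 μL of PBS, with an endpoint at day 14. The total count per tumor ran from 13266029 to 23354212 in WT and from 15453897 to 22293561 in C3-/-. All 5 of 5 epithelial markers were measured, at sums of 5262.8 to 8732.0 CPM (counts scaled to a common library size) in WT and 4620.5 to 7776.1 CPM in C3-/- tumors. The tumor cells carried their own chromosome 17 in both kinds of host, so only the host cells of a tumor (leukocytes, vessels, fibroblasts and residual pancreas) could carry the deleted C3 allele and the DNA beside it.

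A gene is often deleted in embryonic stem cells of one mouse strain and the allele then crossed into another. Each cross exchanges DNA by recombination, but the DNA next to the selected allele is inherited with it, so a stretch of the first strain can stay on both sides of the deleted gene. Such passenger DNA can differ in sequence from that of the control mice, and genes within it can differ in level for reasons unrelated to the loss of the deleted gene. The comparison of the 71 neighbors between hosts asks whether their transcripts differed in the C3-/- tumors. A count per gene holds no alleles, so the strain of the DNA around C3 was not tested, and the number of backcrosses behind these mice is not given in the sources used here. The deletion and any passenger DNA came with every C3-/- host and with no WT host, and cannot be told apart.

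Of the 71 neighbors, 66 lay at lower coordinates than C3 and 5 at higher coordinates, and 63 started within 2 Mb of the middle of the window. A trio of them marks or acts in immune cells, which are host cells here, though which cells gave their RNA was not tested. Adgre1 (ENSMUSG00000004730; 57665691 to 57790527, plus strand) encodes F4/80, the surface receptor by which mouse macrophages are commonly recognized. Vav1 (ENSMUSG00000034116; 57586100 to 57635031, plus strand) encodes a guanine nucleotide exchange factor that acts below antigen receptors in blood cells. Tnfsf9 (ENSMUSG00000035678; 57412325 to 57414757, plus strand) encodes 4-1BB ligand, a costimulatory member of the TNF family. The 250 bases before the start of the canonical transcript of Tnfsf9 and Vav1 are given because the promoter is where a strain difference next to a gene would be looked for. They are the GRCm39 reference, which is C57BL/6J, on the plus strand, and do not show the sequence of the C3-/- hosts. Capitals mark GAGGAA, searched on both strands, a form of the purine-rich motif bound by ETS factors such as PU.1 in myeloid cells.

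Tnfsf9, chr17:57412048-57412297: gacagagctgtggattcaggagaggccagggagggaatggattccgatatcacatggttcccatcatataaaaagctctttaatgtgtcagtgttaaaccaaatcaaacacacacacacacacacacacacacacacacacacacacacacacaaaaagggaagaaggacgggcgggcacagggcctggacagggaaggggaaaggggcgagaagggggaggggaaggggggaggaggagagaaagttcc
Vav1, chr17:57585845-57586094: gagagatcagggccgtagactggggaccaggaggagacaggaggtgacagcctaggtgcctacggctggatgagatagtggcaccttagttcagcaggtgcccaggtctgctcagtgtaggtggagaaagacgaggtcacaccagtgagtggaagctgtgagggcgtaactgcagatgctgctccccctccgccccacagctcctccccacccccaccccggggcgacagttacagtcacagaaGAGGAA

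The stretch before Vav1 held 1 GAGGAA match, 6 bases before the start, and 7 CpG sites, and the one before Tnfsf9 held no match and 4 CpG sites. GAGGAA occurred in 22.9% of 21770 promoters of the same length and in 20 of 60 promoters of the tested neighbors (33.3%). A match is a string of letters and not a bound site.

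C3, the central protein of the complement cascade and the gene deleted in the hosts, was examined first. In CPM, scaled with the TMM factors of edgeR, C3 stood at 209.6, 425.9, 225.9 and 324.3 in WT replicates 1 to 4 and at 109.4, 133.7, 100.3 and 100.7 in C3-/- replicates 1 to 4. Every C3-/- tumor was below every WT tumor, and the C3-/- mean was 37.5% of the WT mean. The log2 fold change of C3-/- over WT was -1.42 ± 0.23 (SE). In edgeR's quasi-likelihood test, its unadjusted p of 8.55e-05 gave a Benjamini-Hochberg adjusted p of 0.933 over 16610 genes, whereas the adjusted p of DESeq2 was 1.2e-05. The labels were thus borne out by the direction of C3. The share that remained is RNA read over the whole gene, in tumors whose cancer cells keep C3, and the part of C3 that the allele removes is not given in the sources used here.

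Among the neighbors, 60 had enough counts to be tested and none was called. The lowest adjusted p was 0.960 in edgeR and 0.634 in DESeq2. Over all 16610 genes, edgeR called 0 (0%) and DESeq2 called 16 of 18864 (0.0848%), so the lack of calls among 60 genes was also the level of the background. At an unadjusted p below 0.05, 3 of the 60 passed (5%), beside 5.11% of all genes. These 3 were Vav1 and Mllt1, with higher means in C3-/- tumors, and Sema6b, with a lower mean. Vav1 and Mllt1 were also the 2 of 60 (3.33%) whose 4 C3-/- values all lay on the same side of the 4 WT values, which held for 3.73% of all genes. The neighbors therefore passed either criterion no more often than the genes of the table as a whole.

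**Figure D1:**
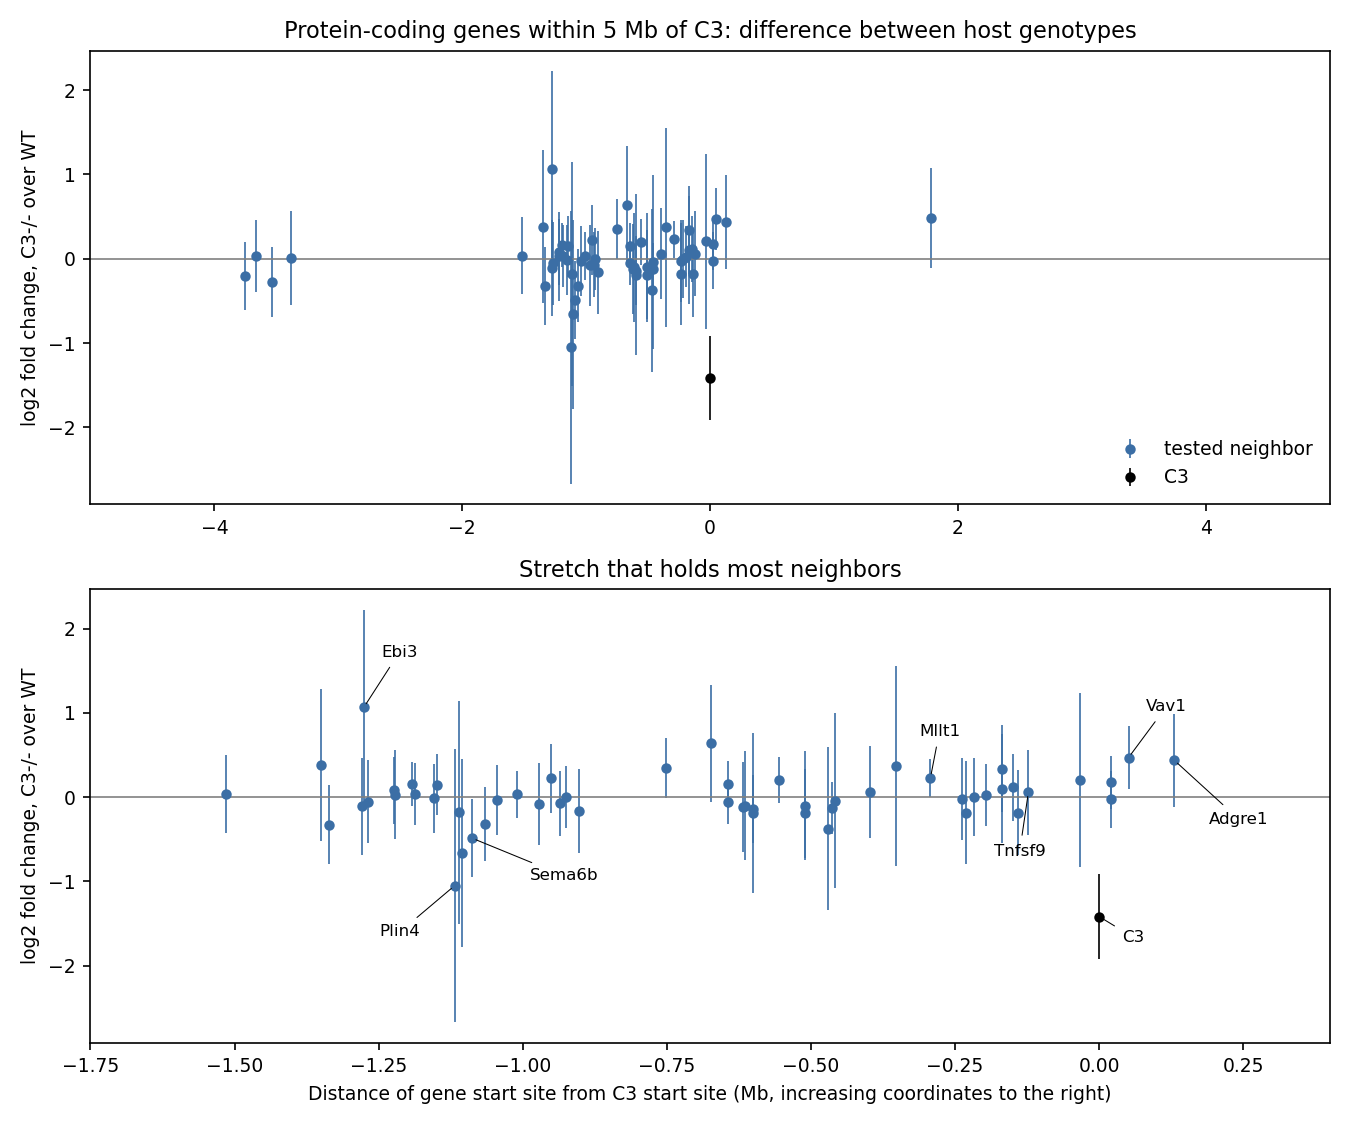
Log2 fold change of C3-/- over WT for the 60 tested neighbors (blue) and C3 (black), plotted against the distance in Mb from the start site of C3 to that of each gene, with the lower panel enlarging the stretch that holds most of them. Bars are 95% confidence intervals from edgeR, and 57 of the 60 intervals of the neighbors include 0, while C3 lies at -1.42.

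The direction of the differences was divided. The mean was higher in C3-/- tumors for 29 neighbors and lower for 31, and the median log2 fold change was -0.00073, beside -0.000058 over all genes tested. The median size of the difference, regardless of sign, was 0.15 for the neighbors and 0.15 for all genes, and the median SE was 0.21 and 0.22. Differences beyond 0.5 on the log2 scale were seen for 4 of 60 (6.67%), beside 10.8% of all genes. These 4, named after their values were seen, were Ebi3, Tincr, Lrg1 and Plin4. The 95% interval lay within 1 on either side of 0 for 48 of the 60 neighbors, and for 42 of the 44 with a median of at least 10 CPM, but within 0.5 for only 19. The median half-width of an interval was 0.47. These intervals are for the whole tumor, cancer and host cells together, and not for the host cells alone.

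**Figure D2:**
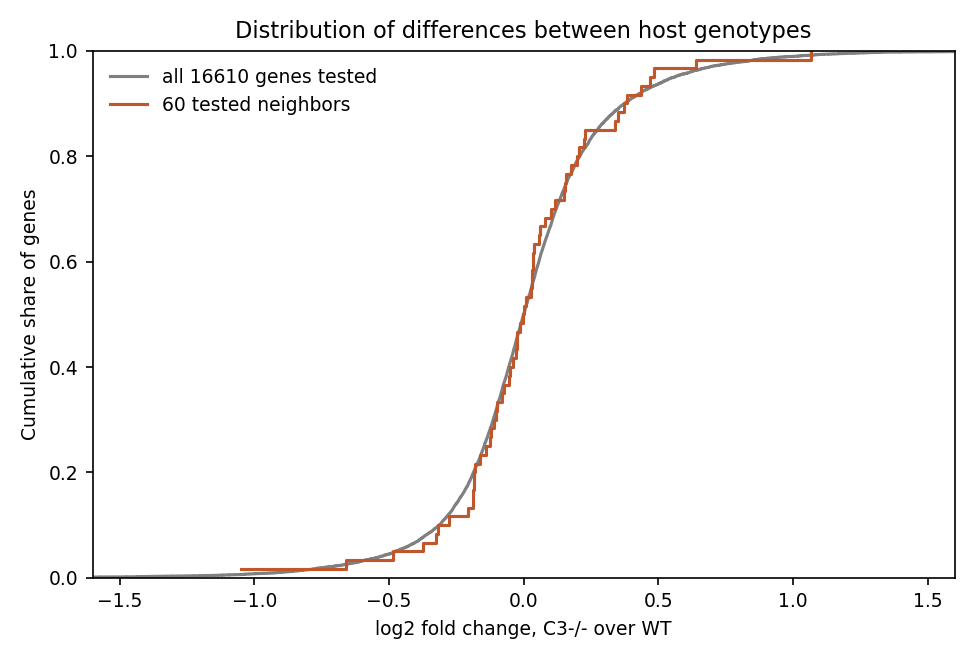
Cumulative share of genes against the log2 fold change of C3-/- over WT, for the 60 tested neighbors (orange) and all 16610 genes tested (grey). Both curves cross the middle at a difference near 0.

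Distance from C3 was examined in 4 classes that differ in their number of genes. Of 23 tested neighbors with a gene body within 500 kb of C3, 13 had a higher and 10 a lower mean in C3-/- tumors, and the class, whose median difference was 0.06 on the log2 scale, held both Vav1 and Mllt1. The median was -0.06 in the 14 genes from 500 to 1000 kb, -0.03 in the 15 from 1000 to 1300 kb and 0.02 in the 8 farther away. The 5 neighbors at higher coordinates (Gpr108, Trip10, Vav1, Adgre1 and Nudt12) had a median of 0.44, with 4 of 5 higher in C3-/- tumors, and the 55 at lower coordinates had a median of -0.02. With 5 genes on one side, this is a description. Beyond the window, 5 of 47 tested protein-coding genes lying 5 to 10 Mb from C3 had an unadjusted p below 0.05 (10.6%), as did 37 of 623 on all of chromosome 17 outside the window (5.94%). No class called a gene at an adjusted p below 0.05.

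The 10 tested genes nearest to C3, from 6.5 to 144.1 kb away, had log2 fold changes between -0.18 and 0.47 with a median of 0.15, and 8 of the 10 had a higher mean in C3-/- tumors. The gene next to C3 at higher coordinates is Gpr108, a membrane protein of the secretory pathway, 6.5 kb away. Gpr108 stood at 43.9, 45.3, 54.8 and 41.4 CPM in WT and at 62.8, 50.2, 49.7 and 46.4 CPM in C3-/- tumors, so the groups overlapped, and its log2 fold change was 0.18 ± 0.14 (SE; 95% interval -0.14 to 0.49). On the other side lies Tnfsf14, 9.8 kb away, the gene of the TNF ligand LIGHT. It was near the lower end of what was measured, with 0.81, 0.90, 1.96 and 1.66 CPM in WT and 2.25, 1.34, 0.57 and 1.97 CPM in C3-/- tumors. Its log2 fold change of 0.21 ± 0.47 (SE) left an interval from -0.83 to 1.24, which says little in either direction. Trip10, 21.3 kb away, encodes an adaptor of Cdc42 that shapes membranes, and its log2 fold change was -0.02 ± 0.15 (SE; interval -0.36 to 0.31). The others of the 10 were Vav1, Tnfsf9, Tubb4a, Dennd1c, Adgre1, Crb3 and Slc25a23. Slc25a23, a mitochondrial carrier of ATP, had a log2 fold change of 0.34 ± 0.23 (SE), and Tubb4a, a β-tubulin, one of -0.18 ± 0.23 (SE).

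Vav1, 51 kb from C3, had the smallest p of the neighbors. It stood at 12, 9.80, 11.4 and 10.8 CPM in WT (11 ± 0.937, SD, n = 4) and at 17.3, 12.8, 13.7 and 17.1 CPM in C3-/- tumors (15.2 ± 2.32, SD, n = 4). The lowest C3-/- tumor was above the highest WT tumor, and C3-/- replicates 1 and 4 were the highest. The log2 fold change was 0.47 ± 0.17 (SE; 95% interval 0.10 to 0.84). In edgeR, the unadjusted p was 0.0179 and the adjusted p 0.960. For the single gene, an exact two-sided permutation test gave p = 0.0286, the smallest that 4 against 4 tumors allow, and 0.0571 after adjustment over the 4 genes so tested (C3, Vav1, Adgre1 and Tnfsf9). The difference was thus larger than the spread between tumors for this gene alone and did not pass a correction.

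Vav1 is used by nearly all leukocytes, so its level was set beside theirs. In a bulk tumor, fewer cells of a type and less RNA per cell cannot be told apart. All 13 of 13 pan-leukocyte markers were measured, and 10 of 13 had a higher mean in C3-/- tumors, with a median log2 fold change of 0.07. Their summed level ran from 386.8 to 487.6 CPM in WT and was 526.4, 322.7, 368.8 and 587.9 CPM in C3-/- replicates 1 to 4. The C3-/- tumors thus held both the highest and the lowest leukocyte sums. Ptprc, the leukocyte antigen CD45, was the 1 marker of the 13 without overlap between groups, with a log2 fold change of 0.52 ± 0.19 (SE) and an adjusted p of 0.965 in edgeR. T cell markers were near the limit of detection. Only 1 of 6 was tested, and the 6 together summed to 0.34 to 1.55 CPM in WT. In C3-/- replicates 1 to 4 they summed to 3.70, 0.56, 3.28 and 2.73 CPM. B cell markers, of which 2 of 4 were tested, were also low. They summed to 1.11 to 3.30 CPM in WT and to 5.15, 1.51, 2.96 and 4.37 CPM in C3-/- replicates 1 to 4.

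Relative to the pan-leukocyte markers, Vav1 remained higher in most C3-/- tumors. The log2 ratio of Vav1 to the mean of the 13 markers was -0.92, -1.16, -1.21 and -0.99 in WT and -0.76, -0.51, -0.63 and -0.96 in C3-/- tumors. Only C3-/- replicate 4 fell among the WT values. The difference of means was 0.36 on the log2 scale (exact two-sided permutation p = 0.0571, 0.171 adjusted over 4 ratios). Relative to Ptprc alone the ratio was -0.84, -1.12, -0.82 and -1.04 in WT and -0.60, -0.86, -1.07 and -1.36 in C3-/- tumors, and the difference was -0.02 (exact permutation p = 0.857, adjusted 0.857). The excess of Vav1 thus depended on the leukocyte transcripts it was set against.

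Adgre1, 130.6 kb from C3, varied more among C3-/- tumors than among WT tumors. It stood at 23.6, 25.1, 21.5 and 20.5 CPM in WT (SD 2.05, n = 4) and at 35.4, 18.3, 24.1 and 44.9 CPM in C3-/- tumors (SD 11.8, n = 4). C3-/- replicates 1 and 4 were above all WT tumors and C3-/- replicate 2 was below them. The log2 fold change was 0.44 ± 0.25 (SE; interval -0.12 to 0.99), and the exact permutation p was 0.343 (adjusted 0.457). It was 0.19 without C3-/- replicate 4. The other macrophage markers, of which all 13 of 13 were tested and 9 had a higher mean in C3-/- tumors, were highest in the same tumors. Their sum was 2198.9, 1095.1, 1280.1 and 2004.3 CPM in C3-/- replicates 1 to 4, against 1315.4 to 1696.9 CPM in WT. Ms4a7 was the 1 marker of the 13 with an unadjusted p below 0.05.

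Set against those markers, the difference of means in Adgre1 fell from 0.35 on the log2 scale. Its spread between tumors fell too, and the exact permutation p fell from 0.343. The log2 ratio of Adgre1 to the mean of the 13 macrophage markers was -1.15, -1.11, -1.47 and -1.23 in WT and -1.16, -1.12, -0.98 and -0.69 in C3-/- tumors. The ranges overlapped, with a difference of means of 0.25 (exact permutation p = 0.143, adjusted 0.190), which fell to 0.15 without C3-/- replicate 4. Relative to Csf1r, the receptor that macrophages need to survive, the ratio was -2.10, -2.18, -1.99 and -2.00 in WT and -2.01, -1.85, -1.96 and -1.79 in C3-/- tumors, a difference of 0.17 (exact permutation p = 0.0857, adjusted 0.171). Here C3-/- replicate 1 alone fell among the WT values, and the other C3-/- tumors lay above them all. None of the 4 ratios passed the adjusted threshold of 0.05.

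**Figure D3:**
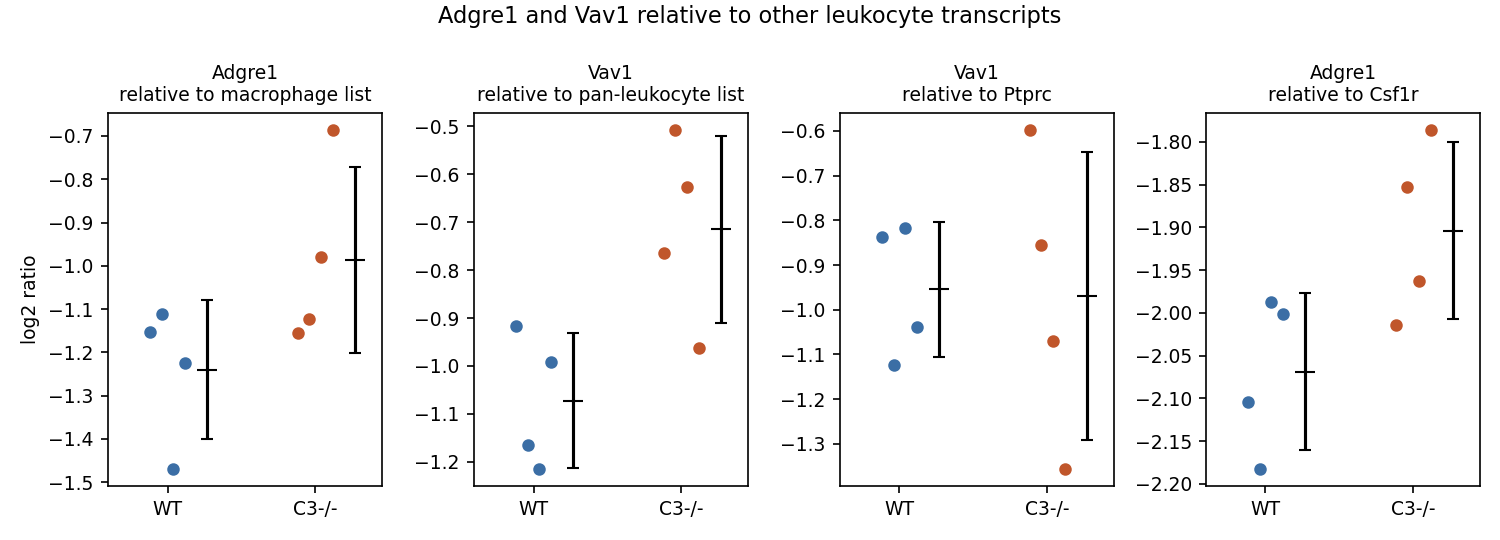
Log2 ratio of Adgre1 or Vav1 to other leukocyte transcripts in each tumor (points; WT blue, C3-/- orange), with the mean and SD of 4 tumors (black bars), each panel on its own axis. The ratio of Vav1 to the pan-leukocyte list and that of Adgre1 to Csf1r each separate 3 of 4 C3-/- tumors from WT. The ratio of Vav1 to Ptprc does not.

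Tnfsf9, 96.2 kb from C3, did not separate the hosts. It stood at 7.03, 12.2, 11.6 and 10.6 CPM in WT and at 13.5, 11.3, 9.83 and 8.37 CPM in C3-/- tumors. WT replicate 1 was the lowest and C3-/- replicate 1 the highest, and the other 6 tumors were mixed. The log2 fold change was 0.06 ± 0.23 (SE; interval -0.45 to 0.56; exact permutation p = 0.771, adjusted 0.771), and it turned to -0.09 without WT replicate 1 and to -0.07 without C3-/- replicate 1. Cd70, the third TNF ligand of the cluster, fell below the filter.

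Mllt1 and Sema6b were the remaining genes with an unadjusted p below 0.05. Mllt1, 268.6 kb from C3, encodes ENL, a reader of acetylated histones in transcription elongation complexes. It stood at 48.7, 51.2, 52.5 and 54.7 CPM in WT and at 61.7, 59.3, 61.1 and 60.8 CPM in C3-/- tumors. The groups did not overlap and each was narrow, and the log2 fold change was small, 0.23 ± 0.10 (SE; unadjusted p 0.0456 and adjusted p 0.971 in edgeR). Sema6b encodes a transmembrane semaphorin of axon guidance. It stood at 38.4, 50.5, 38.6 and 32.8 CPM in WT and at 39.8, 25.1, 21.4 and 27.9 CPM in C3-/- tumors. C3-/- replicate 1 lay among the WT values and the other 3 C3-/- tumors lay below them all. Its difference on the log2 scale was -0.49 ± 0.21 (SE; unadjusted p 0.0410 and adjusted p 0.971 in edgeR).

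**Figure D4:**
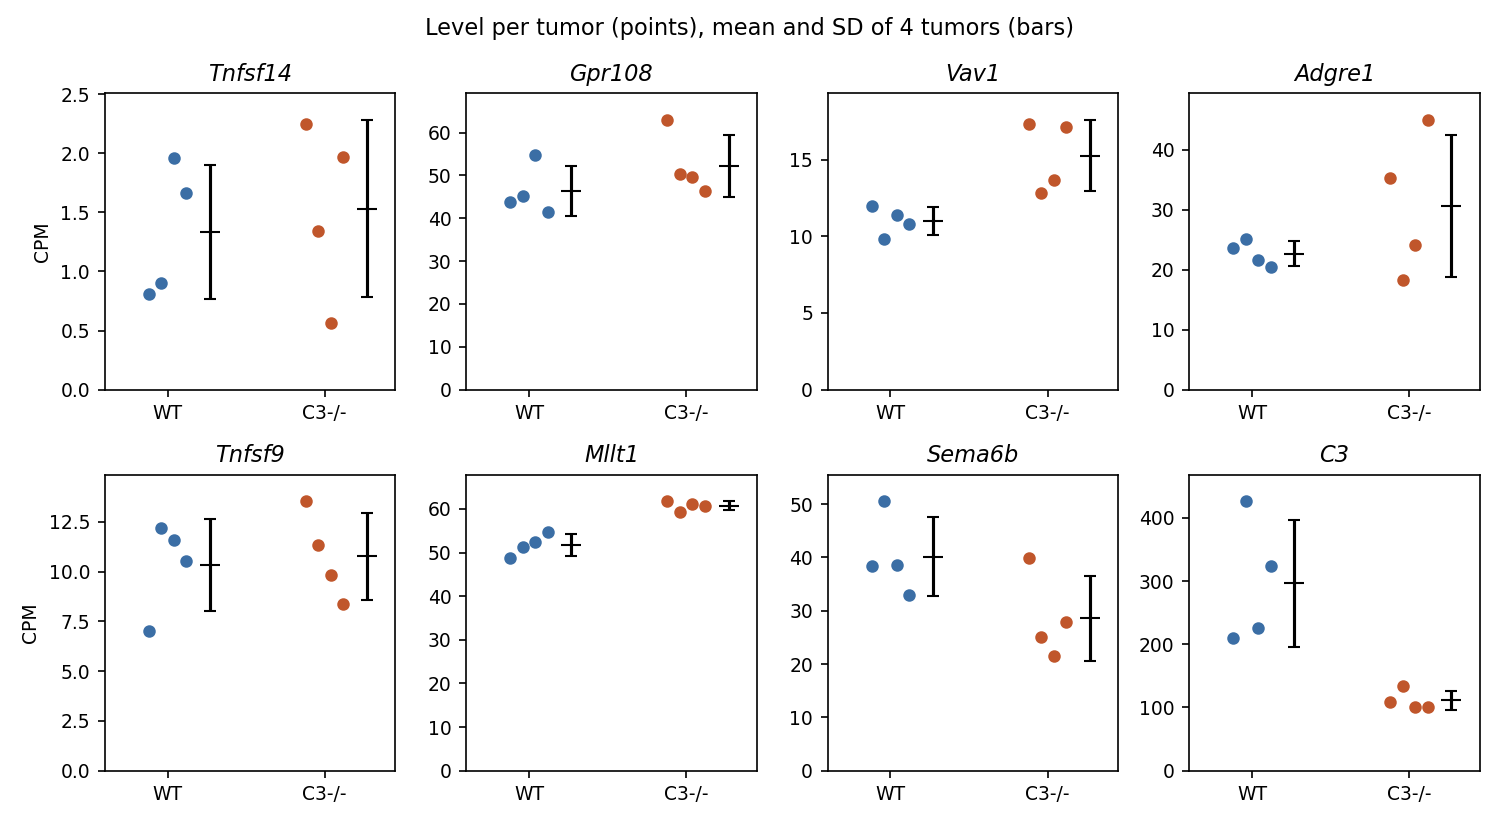
CPM of 7 neighbors and of C3 in each tumor (points; WT blue, C3-/- orange), with the mean and SD of 4 tumors (black bars) and each axis starting at 0. Vav1 and Mllt1 show no overlap between groups, as does C3 in the other direction, and Adgre1 spreads from 18.3 to 44.9 CPM in C3-/- tumors.

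The other neighbors were read by function, and no group held a called gene. Of 6 tested genes of leukocyte receptors and signalling, 5 had a higher mean in C3-/- tumors, with a median log2 fold change of 0.33, and 1 (Vav1) had an unadjusted p below 0.05. Next to Vav1, Adgre1 and Trip10 these were Ticam1 (0.22 ± 0.19, SE), the adaptor TRIF of Toll-like receptor signalling, Stap2 (0.08 ± 0.18) and Ebi3 (1.07 ± 0.52). The list goes by role, and Trip10 and Stap2 averaged 107.1 and 38.1 CPM in WT, above Ptprc at 21.4 CPM. Which cells gave their RNA was not tested. Ebi3, a subunit of the cytokines IL-27 and IL-35, had the highest fold change of the tested neighbors, at levels among the lowest tested, with 0.25, 0.68, 0.68 and 0.30 CPM in WT and 1.50, 0.39, 1.01 and 0.98 CPM in C3-/- tumors. Replicates 1, 3 and 4 of its C3-/- tumors were above all WT tumors, and the interval ran from -0.09 to 2.22.

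The 3 perilipins, which coat lipid droplets, all had a lower mean in C3-/- tumors without passing the test. Plin4 varied most. It stood at 20.5, 73.2, 2.56 and 50.3 CPM in WT and at 19.5, 8.51, 14.5 and 28.3 CPM in C3-/- tumors, with a log2 fold change of -1.05 ± 0.73 (SE; interval -2.67 to 0.57). Plin4 is known from fat and muscle, and the marker sums of those tissues differed between tumors. Of 6 adipocyte markers 4 were tested, and their sum was 496.4 CPM in WT replicate 2 and between 44.6 and 123.5 CPM in the other 7 tumors. Of 10 skeletal muscle markers 9 were tested, and their sum was 1705.7, 2.71, 1.88 and 3984.0 CPM in WT and 1894.2, 2.07, 1552.7 and 3612.4 CPM in C3-/- tumors. The highest Plin4 value was in the tumor with the highest adipocyte sum, and the lowest was in the tumor with the lowest muscle sum. Plin5, at 1.43, 0.60, 0.30 and 2.51 CPM in WT and 0.84, 0.95, 0.69 and 1.91 CPM in C3-/- tumors, was highest in the pair of tumors with the highest muscle sums. The part of these tissues in the perilipin values was not tested. Plin3, which most cells use, had a log2 fold change of -0.07 ± 0.17 (SE).

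Of 10 tested genes of chromatin and replication, 6 had a higher and 4 a lower mean, with log2 fold changes between -0.28 and 0.23, and 1 (Mllt1) had an unadjusted p below 0.05. Uhrf1, which maintains DNA methylation, was at -0.00036 ± 0.17 (SE), Chaf1a, a histone chaperone of replication, at 0.04 ± 0.17, and Kdm4b, a histone demethylase, at -0.16 ± 0.22. The list of secreted and surface factors had 4 lower and 2 higher means among 6 tested. Among the higher was Dpp9 (0.03 ± 0.13, SE), a peptidase of the cytosol that is neither secreted nor on the surface. Lrg1, a glycoprotein of inflammation and angiogenesis, stood at 15.6, 48.7, 20.9 and 13.9 CPM in WT and at 31.7, 8.12, 9.27 and 13.2 CPM in C3-/- tumors, and its log2 fold change was -0.66 ± 0.50 (SE). Without C3-/- replicate 1 it was -1.28 ± 0.43 (SE; unadjusted p 0.0157 and adjusted p 0.422 in edgeR), without WT replicate 2 it was -0.11 ± 0.44 (SE), and without both it was -0.71 ± 0.25 (SE; adjusted p 0.421). Ptprs, a receptor tyrosine phosphatase and the neighbor with the highest median CPM (287.7), stood at 239.1, 306.5, 183.7 and 219.2 CPM in WT and at 292.6, 333.2, 300.3 and 282.7 CPM in C3-/- tumors. WT replicate 2 was above 3 of the 4 C3-/- tumors, and the log2 fold change was 0.35 ± 0.16 (SE; interval -0.01 to 0.71). The membrane traffic list had 5 higher and 2 lower means among 7 tested, between -0.21 and 0.20. Its highest, Ranbp3, is a cofactor of nuclear export. Of the 14 tested genes outside these groups, 7 were higher and 7 lower, among them Tincr (0.64 ± 0.31, SE), with 1.40 to 2.30 CPM in WT and 2.06 to 4.14 CPM in C3-/- tumors.

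Of 6 tested mitochondrial genes, 5 had a lower mean in C3-/- tumors, and the median difference of the 6 was -0.11 on the log2 scale. The list of RNA and protein synthesis also had 5 of 6 tested with a lower mean, but 1 of them was Tubb4a, a β-tubulin, without which it was 4 of 5. None of these genes passed the test. Rpl36, a ribosomal protein and the neighbor with the highest level per length (median RPKM of 434.4), stood at 166.6, 166.2, 282.1 and 175.1 CPM in WT and at 309.6, 131.4, 148.9 and 145.8 CPM in C3-/- tumors. Ndufa11, a subunit of respiratory complex I, stood at 27.1, 26.9, 52.4 and 27.1 CPM in WT and at 48.5, 24.4, 26.5 and 25.0 CPM in C3-/- tumors. In both genes, WT replicate 3 and C3-/- replicate 1 lay far above the other 6 tumors, among which the C3-/- values were the lower ones. The log2 fold changes were -0.10 ± 0.29 (SE) for Rpl36 and -0.10 ± 0.29 (SE) for Ndufa11. Without C3-/- replicate 1 they were -0.47 ± 0.19 (SE; adjusted p 0.448 in edgeR) for Rpl36 and -0.40 ± 0.24 (SE; adjusted p 0.548) for Ndufa11. Without WT replicate 3 instead they were 0.12 ± 0.28 (SE) for Rpl36 and 0.20 ± 0.25 (SE) for Ndufa11, and without both tumors they were -0.26 ± 0.09 (SE; adjusted p 0.391) for Rpl36 and -0.11 ± 0.10 (SE; adjusted p 0.731) for Ndufa11. Khsrp, an RNA-binding protein of AU-rich elements and the third of the highest neighbors by median CPM (144.2), showed no such rise, with a log2 fold change of 0.03 ± 0.16 (SE).

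**Figure D5:**
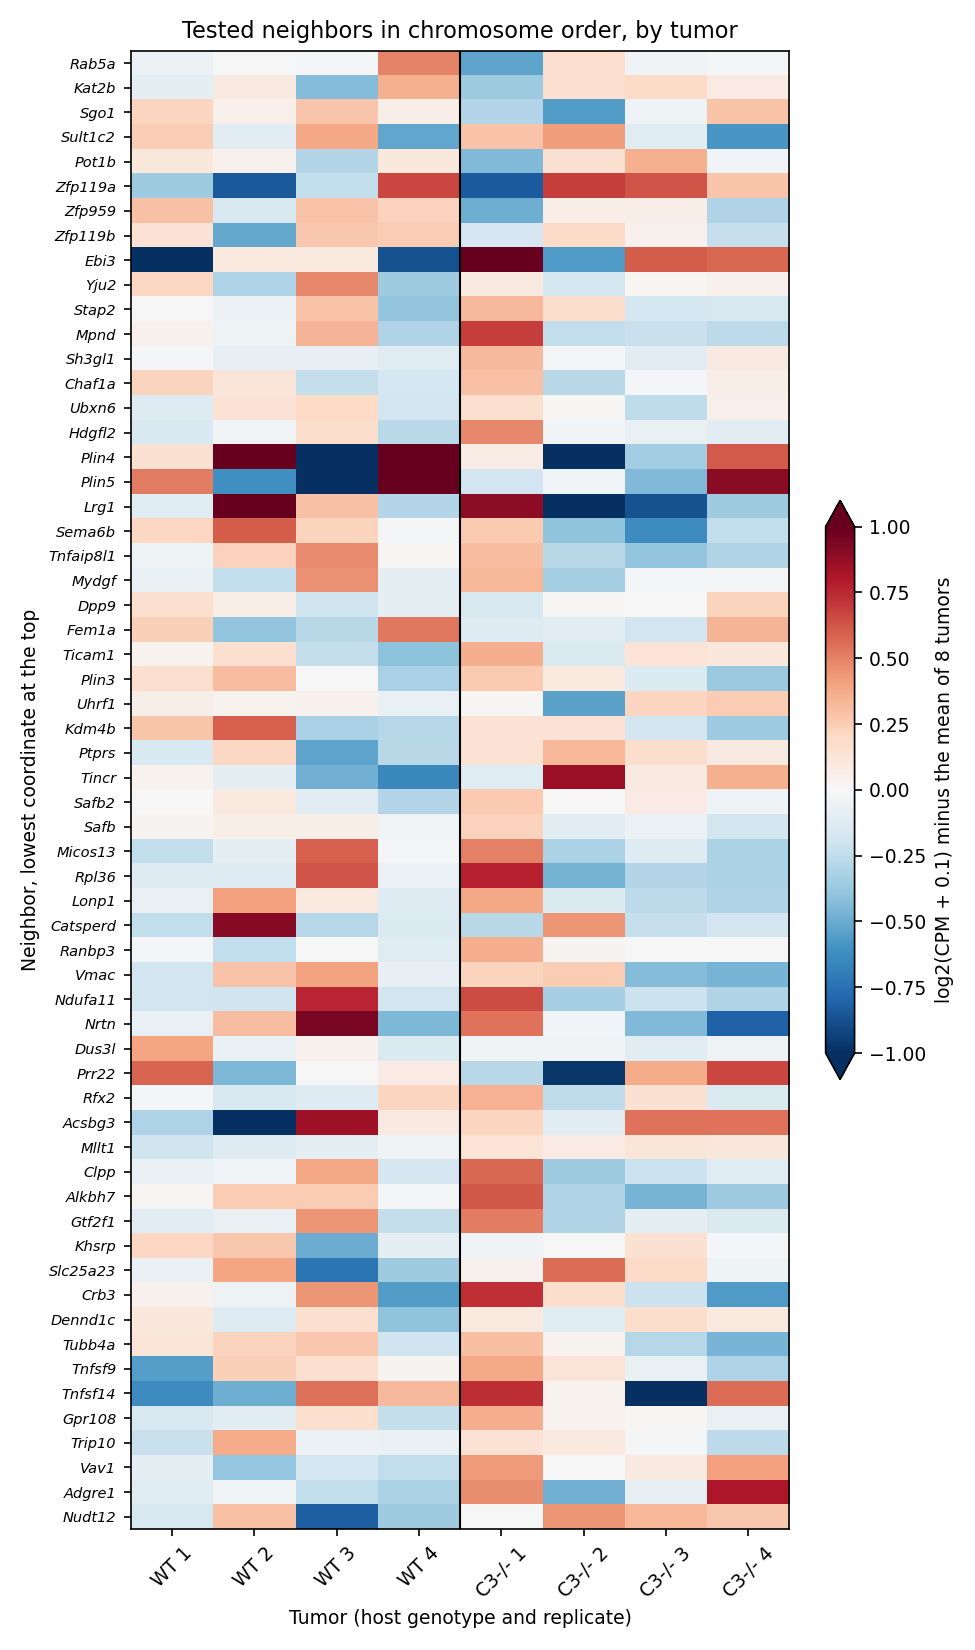
Deviation of log2(CPM + 0.1) from the mean of the 8 tumors for the 60 tested neighbors, in chromosome order, with colors ending at 1 on either side. C3-/- replicate 1 holds the highest value for 22 of the 60, and no block of adjacent genes separates the 4 WT columns from the 4 C3-/- columns.

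C3-/- replicate 1 stood apart over the window as a whole. It held the highest value of the 8 tumors for 22 of the 60 tested neighbors (36.7%), beside 18.0% of all genes, and the median deviation of the neighbors from their 8-tumor means was 0.26 in this tumor and between -0.13 and 0.08 in the other 7. It also held the most acinar RNA, with a sum over 9 of 9 acinar markers of 1672.7 CPM, beside 3.88 to 436.3 CPM in the other 7 tumors. The neighbors share a base composition that the rule did not use. Their canonical transcripts had a median GC content of 55.9%, beside 50.1% for all genes tested, and 49 of 60 were above the latter. The median transcript length was 2596 bases, beside 3060. Across all genes tested, the deviation of a gene in C3-/- replicate 1 correlated with GC content (Spearman's rho 0.36) and with length (-0.39), a description across genes that share a library and are not independent. In the other 7 tumors, rho lay between -0.26 and 0.12 for GC content, and for length it was -0.38 in WT replicate 3 and between 0.09 and 0.24 in the rest. Of the 15 neighbors with a transcript under 2000 bases, 9 were highest among WT tumors in replicate 3 and highest among C3-/- tumors in replicate 1, as were 10 of the 45 longer ones. The part of acinar tissue or of library composition in these values was not tested.

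Without C3-/- replicate 1, more neighbors separated the hosts, as did more genes everywhere. In edgeR, 7 of 60 neighbors then had an unadjusted p below 0.05, beside 10.7% of all genes, and 12 of 60 did not overlap (20%), beside 13.8% of all genes. Of these 12, Vav1, Mllt1, Ranbp3 and Tincr were higher and Sema6b, Tnfaip8l1, Lrg1, Lonp1, Alkbh7, Safb, Rpl36 and Ndufa11 were lower in C3-/- tumors. None of the neighbors was called, beside 4 of 16882 genes (0.0237%), the log2 fold change of Vav1 was 0.40 ± 0.17 (SE), and that of Sema6b was -0.69 ± 0.17 (SE; adjusted p 0.360). When each tumor's trends on GC content and length were removed, an alternative chosen after seeing the data, all 8 tumors gave 3 of 60 neighbors with an unadjusted p below 0.05 (5%; Vav1, Sema6b and Ptprs), beside 6.5% of all genes, 2 without overlap (3.33%), beside 4.15%, and 0 called. Mllt1 was then at 0.19 with an unadjusted p of 0.111, and its groups overlapped. With the same correction and without C3-/- replicate 1, 5 of 60 had an unadjusted p below 0.05 (8.33%), beside 9.5% of all genes, and 9 did not overlap (15%), beside 11.8%. Vav1 was then at 0.37 with an unadjusted p of 0.0545.

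The 11 neighbors that were not tested (Kcnh8, Efhb, Pp2d1, Slc5a7, Adgre4, Shd, Fsd1, Pspn, Gm17949, Slc25a41 and Cd70) had at most 21 counts in any tumor, and 8 of them had a median of 3 counts or fewer. Kcnh8 was the only one at 0 in every tumor of a genotype, with 0 counts in the C3-/- tumors and 2 counts in a single WT tumor. No difference was detectable at this depth for these genes. Of all 71 neighbors, 47 share exon bases with another annotated gene, in each case on the opposite strand, and the strand setting of the counting is not given in the sources used here, so reads of such pairs may have been mixed. Mllt1 and Tnfsf9 are among the 47, whereas Vav1, Adgre1 and Sema6b are not. The labels call the tumors biological replicates, and the p-values rest on the spread between 4 tumors per genotype.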

How the data were processed

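RNA from 8 KPC tumors (4 WT and 4 C3-/- hosts) was sequenced from poly-A selected libraries. The deposited values used here are raw counts per gene, which the authors made by aligning reads to mm39 and counting them per gene. The paper's methods name STAR and HTSeq, and the submitters' processing notes name HISAT2 2.0.5 and DESeq2 1.20.0. The normalized counts, FPKM values, fold changes and p-values of the same table were not used.

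All 29968 genes entered edgeR 4.0.16 in R 4.3.3 (filterByExpr with a minimum count of 10, TMM, glmQLFit and glmQLFTest, Benjamini-Hochberg over 16610 genes tested), and only the neighbors of C3 are given. Confidence intervals (95%) used the residual degrees of freedom of that fit. The genes tested held 99.78% or more of the counts of every tumor, and the median biological coefficient of variation was 0.245. Single genes and ratios were tested by exact two-sided permutation of log2(CPM + 0.1), adjusted over 4 genes and over 4 ratios. A ratio is the gene's log2(CPM + 0.1) minus the mean of the marker genes, with Adgre1 left out of the macrophage list.

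The genes and lists were chosen with earlier results of these data known. Named genes were C3, Adgre1, Vav1 and Tnfsf9, the 10 tested neighbors nearest to C3, those with an unadjusted p below 0.05, without overlap or called by DESeq2, members of the functional groups, the 3 with the highest median CPM, and genes at 0 in every tumor of a genotype and above 3 counts in every tumor of the other (0 such genes). Genes named for other reasons were chosen after their values were seen.

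Alternatives were DESeq2 1.42.0, DESeq2 size factors, 2 other filters, the replicate number as a block, other windows, all biotypes, a pseudocount of 1 and each tumor left out. An offset for GC content and transcript length (GENCODE vM39 canonical transcripts, available for 99.7% of genes tested) was added after seeing the data, as was leaving out the high tumors of Rpl36, Ndufa11 and Lrg1. All 71 neighbors were found in GENCODE vM39 (GRCm39), which also gave the start sites before which promoters were read. The fits were tested on simulated data.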

Additional observations from a re-analysis of the deposited data

Results flagged for a closer look

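In each genotype, the highest or lowest of the 4 tumors was set against the others by its gap relative to the whole range. Of 130 groups of 4 examined (60 neighbors, C3 and the ratios), 17 had a tumor that stood apart, where chance gives about 1 in 20, or 6.5. Of the 17, 7 were in C3-/- replicate 1. Values are log2(CPM + 0.1).

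In C3-/- replicate 1, values stood above the other C3-/- tumors for Mpnd (6.19, others 5.24 to 5.29), Hdgfl2 (6.30, others 5.71 to 5.80), Tnfaip8l1 (4.68, others 3.98 to 4.10), Rpl36 (8.27, others 7.04 to 7.22), Ranbp3 (6.91, others 6.55 to 6.58), Ndufa11 (5.60, others 4.62 to 4.73) and Alkbh7 (3.30, others 2.21 to 2.38). In WT replicate 3, Rpl36 (8.14, others 7.38 to 7.45) and Ndufa11 (5.72, others 4.75 to 4.77) stood above the other WT tumors and Pot1b (3.16, others 3.49 to 3.56) below them.

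In WT replicate 2, Zfp959 (2.83, others 3.22 to 3.28) and Zfp119b (1.33, others 1.98 to 2.11) were low and Catsperd (0.684, others -0.509 to -0.357) was high. Catsperd was also high in C3-/- replicate 2 (0.219, others -0.498 to -0.403), at levels near 1 CPM. Rab5a (6.31, others 5.76 to 5.82) was high and Uhrf1 (5.88, others 5.98 to 6.01) slightly low in WT replicate 4, and Fem1a (5.90, others 5.37 to 5.44) was high in C3-/- replicate 4.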

How the results depend on the processing

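No neighbor was called under any of the 18 alternatives, whose median log2 fold change over the neighbors ran from -0.07 to 0.09. The median deviation of the neighbors in a tumor had an SD of 0.124 between tumors of a genotype. That is a spread of single tumors and not the error of a difference between genotypes. Adgre1 (0.19 to 0.62) and Vav1 (0.37 to 0.55) kept their sign under all 15 of theirs and were called under none. C3 kept its sign and passed the threshold in DESeq2 only (-1.42). Leaving out each tumor in turn moved the neighbors with an unadjusted p below 0.05 from 1 to 7 (all genes 2.75% to 10.7%), those without overlap from 2 to 12 (all genes 4.52% to 13.8%), the log2 fold change of Tnfsf9 from -0.089 to 0.16 and the ratio of Vav1 to Ptprc from -0.14 to 0.11. Tnfsf9 turned negative without WT replicate 1 (-0.089) and without C3-/- replicate 1 (-0.07), and the ratio of Vav1 to Ptprc turned positive without WT replicate 1 (0.02), WT replicate 3 (0.03), C3-/- replicate 3 (0.02) or C3-/- replicate 4 (0.11). Rpl36 ran from -0.47 without C3-/- replicate 1 to 0.12 without WT replicate 3 and Ndufa11 from -0.40 to 0.20, both turning positive without WT replicate 3, an alternative chosen after seeing the data. The signs of Tnfsf9, the ratio of Vav1 to Ptprc, Rpl36 and Ndufa11 were thus set by single tumors. The highest counts, 7 and 12, came without C3-/- replicate 1, and with the GC and length offset added there they were 5 (8.33%, beside 9.5% of all genes) and 9 (15%, beside 11.8%). The window of 10 Mb gave 8 genes with an unadjusted p below 0.05 and 5 without overlap, of which the 47 genes added gave 5 (10.6%, beside 5.11% of all genes) and 3 (6.38%, beside 3.73%). The labels name no pairing by replicate number. Correlations of same-numbered deviations were mixed (-0.03, 0.49, -0.36 and 0.59) and do not settle whether the numbers paired the tumors. The replicate block gave 0 called, 3 with an unadjusted p below 0.05, a Vav1 value of 0.46 and an Adgre1 value of 0.36. With 3 against 4 tumors, no exact test can go below p = 0.0571.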
